A study of Mus musculus with 8 samples.

Results

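The genes described are 9 receptors for inflammatory and tissue chemokines, Ccr2, Ccr3, Ccr4, Ccr6, Ccr8, Ccr9, Cxcr3, Cxcr6 and Ccrl2. They were taken by name, as receptors that direct cells to non-lymphoid tissue, from the 38215 genes listed for regulatory T cells (Treg) that came from bone marrow (BM-Treg) or spleen (SP-Treg). Chemokine receptors are membrane proteins that couple to inhibitory G proteins and steer a migrating cell towards the tissue that releases the ligand. Treg that leave the lymphoid organs carry sets of these receptors that differ with the site they enter. Ccrl2 is an atypical relative, which binds chemerin and presents it to other cells without a known signal of its own.

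FoxP3+ Treg had been sorted from naïve B6.FoxP3-GFP mice aged 12 weeks, in which a green fluorescent protein marks the cells that express FoxP3. RNA of 4 BM-Treg and 4 SP-Treg libraries was amplified by the SPIA method and sequenced from 1 end with reads of 80 nt. All libraries are labelled C57Bl/6, and no treatment is given for either tissue. BM-Treg replicates 1 to 3 are labelled batch 1 and female, whereas batch 3 and male are the labels of the fourth BM-Treg replicate and of every SP-Treg library. The study's methods give female mice as the default and name no male mice for the sequencing, which differs from these labels. Batch and sex cannot be told apart, and tissue can be told from them only through BM-Treg replicate 4.

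Libraries held 12427136 to 21921252 expected counts, that is, reads assigned to genes by an estimate that can give fractions. Levels are given as CPM, counts scaled to a common library size, and 3 counts corresponded to 0.131 to 0.251 CPM. The 9 genes had 53 to 8711 expected counts in each library, and all 9 passed the filter on low counts, as did 13397 genes in all. The summed level of 7 Treg markers (Foxp3, Il2ra, Ctla4, Ikzf2, Tnfrsf18, Cd3e and Cd4) ranged from 7457 to 8855 CPM in BM-Treg and from 8158 to 8957 CPM in SP-Treg, so that the labelled cell type was borne out by its markers in every library. B cell markers summed to 138.4 CPM in SP-Treg replicate 2 and to 13.003 to 29.6 CPM in the other SP-Treg libraries, and this library stood apart. Erythroid markers summed to 12.6 to 32.5 CPM in BM-Treg and to 1.80, 187.2, 453.1 and 290.3 CPM in SP-Treg replicates 1 to 4. SP-Treg replicate 1 thus lay below the BM-Treg libraries and the other SP-Treg libraries above them.

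Of the 9 receptor genes, 2 were called, Ccr3 and Ccrl2, and both were higher in BM-Treg (edgeR's quasi-likelihood test, adjusted p threshold 0.05). Over all tested genes, 8.75% were called, 3.72% as higher and 5.02% as lower in BM-Treg. The same 2 receptor genes had no overlap between the libraries of the tissues, which held for 16.2% of tested genes (7.6% with BM-Treg higher and 8.56% with BM-Treg lower). The other 7 were not called. Log2 fold changes were above 0 for 8 receptor genes and below 0 for Ccr8, with a median of 0.41 against -0.01 over all tested genes, of which 48.6% were above 0. An unadjusted p under 0.05 was found for 4 of the 9, against 23.3% of tested genes. With batch as a term in the model neither Ccr3 nor Ccrl2 was called, and Cxcr6 was. That model called 1.93% of tested genes.

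**Figure D1:**
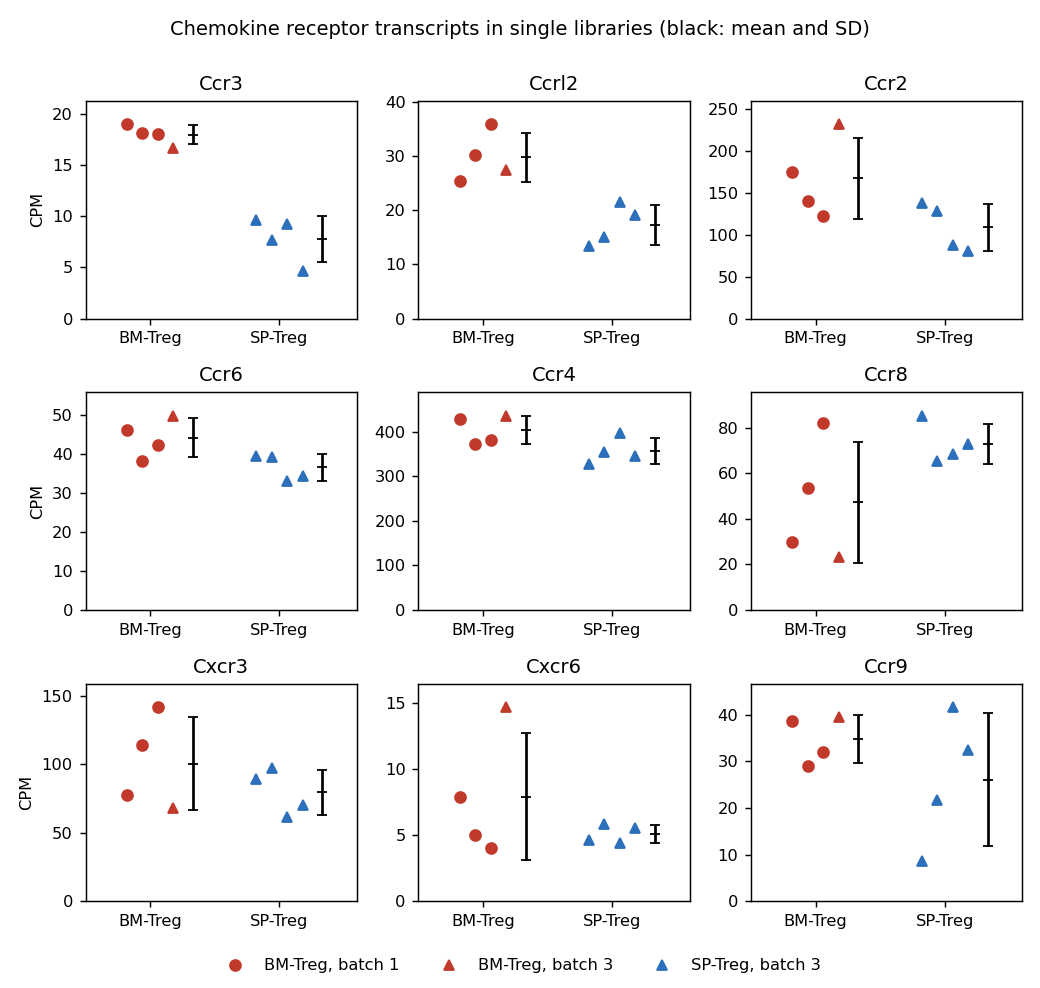
Level of each receptor gene in CPM (vertical axis, from 0) in the 4 BM-Treg and 4 SP-Treg libraries, with circles for batch 1, triangles for batch 3, and mean and SD in black. Ccr3 and Ccrl2 are the panels in which the tissues do not overlap. BM-Treg replicate 4, the batch 3 library, is the lowest or the highest BM-Treg library for 8 of the 9 genes, Ccrl2 being the exception. The share of all tested genes for which this holds is not given, so the count is not read as particular to these receptors.

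Ccr3 is the receptor for the eotaxins and is best known from eosinophils. It lies at chr9:124021971-124031689 (GRCm38, plus strand, ENSMUSG00000035448). Its level was 19.0, 18.1, 18.1 and 16.7 CPM in BM-Treg replicates 1 to 4 and 9.63, 7.73, 9.19 and 4.62 CPM in SP-Treg replicates 1 to 4. The lowest BM-Treg value, 16.7 CPM, exceeded the highest SP-Treg value, 9.63 CPM, and the BM-Treg libraries lay close together. BM-Treg averaged 17.97 ± 0.945 CPM and SP-Treg 7.79 ± 2.26 CPM (SD over 4 libraries), which gave a log2 fold change of 1.21 (SE 0.20, adjusted p = 0.00234 in edgeR's test). Ccr3 was called whichever library was left out, with log2 fold changes of 1.02 to 1.34. Batch 1 libraries of BM-Treg averaged 18.4 CPM and the batch 3 library, at 16.7 CPM, was still above the SP-Treg libraries. With batch as a term the log2 fold change was 1.10 and the adjusted p 0.0782 (edgeR).

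Since Ccr3 marks eosinophils, their markers were read in the same libraries. The 8 eosinophil markers summed to at most 0.35 CPM in BM-Treg and to 0.503 to 3.74 CPM in SP-Treg. Prg3 and Siglecf were at 0 in every library, and Epx, eosinophil peroxidase, was at 0 in the 4 BM-Treg libraries. Of the 8 markers, 7 were under 1 CPM in every library. The 6 basophil and mast cell markers were under 1 CPM in every library, with sums of 0.044 to 0.383 CPM in BM-Treg and 0 to 0.514 CPM in SP-Treg. The part of these cells in the Ccr3 result was not tested. In bulk samples, fewer cells that express a gene and less RNA per cell cannot be told apart.

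Ccrl2 lies at chr9:111054835-111057270 (GRCm38, minus strand, ENSMUSG00000043953). Its level was 25.5, 30.3, 35.9 and 27.5 CPM in BM-Treg replicates 1 to 4 and 13.4, 15.0, 21.5 and 19.1 CPM in SP-Treg replicates 1 to 4. The lowest BM-Treg library, replicate 1, was above the highest SP-Treg library, replicate 3. BM-Treg averaged 29.8 ± 4.53 CPM and SP-Treg 17.2 ± 3.72 CPM (SD over 4 libraries), which gave a log2 fold change of 0.79 (SE 0.17, adjusted p = 0.00898 in edgeR's test). Ccrl2 was called whichever library was left out, with log2 fold changes of 0.69 to 0.91. With batch as a term it was 0.67 with an adjusted p of 0.186 (edgeR). Macrophages and neutrophils also express Ccrl2. The 8 monocyte and macrophage markers summed to 26.6 to 34.4 CPM in BM-Treg and 18.5 to 41.2 CPM in SP-Treg, and the 8 neutrophil markers to 1.31 to 9.86 and 0.216 to 16.9 CPM. Both lists overlapped between the tissues. For monocytes and macrophages this came from SP-Treg replicate 1 (18.5 CPM). The other SP-Treg libraries, at 36.6 to 41.2 CPM on that list, lay above every BM-Treg library. The part of both lists in the Ccrl2 result was not tested.

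The promoters of these 2 genes are shown because they were the receptor genes that were called. Each covers 250 bases before to 50 after the start in RefSeq (GRCm38.p6), read in the direction of the gene. They lie at chr9:124021721-124022020 (plus strand) for Ccr3 and chr9:111057221-111057520 (minus strand) for Ccrl2. For Ccrl2, 3 starts are listed, and the start nearest to that of the deposited gene was used. Capitals mark the GATA words AGATAA or AGATAG as well as TGATAA or TGATAG, and the AP-1 word TGANTCA on either strand.
Ccr3: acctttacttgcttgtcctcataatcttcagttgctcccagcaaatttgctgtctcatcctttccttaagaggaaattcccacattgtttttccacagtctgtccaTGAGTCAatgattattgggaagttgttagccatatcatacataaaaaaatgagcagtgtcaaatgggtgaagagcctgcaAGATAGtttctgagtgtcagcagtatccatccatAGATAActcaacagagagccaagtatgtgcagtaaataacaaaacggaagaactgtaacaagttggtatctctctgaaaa
Ccrl2: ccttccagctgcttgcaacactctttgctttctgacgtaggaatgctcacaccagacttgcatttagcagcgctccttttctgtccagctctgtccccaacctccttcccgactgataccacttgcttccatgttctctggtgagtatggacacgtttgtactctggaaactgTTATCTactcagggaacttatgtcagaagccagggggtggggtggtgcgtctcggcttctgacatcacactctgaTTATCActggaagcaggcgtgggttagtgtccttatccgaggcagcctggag
GATA words began 64 and 30 bases before the start of Ccr3, and its AP-1 word 144 bases before it. In Ccrl2, GATA words began 77 and 2 bases before the start. A GATA word was found in 29.8% of 32851 promoters and in 5 of the 9 receptor promoters. With every listed start of a gene read, 6 of the 9 receptor genes had one. The AP-1 word was found in 7.81% of promoters and in 2 receptor promoters, Ccr3 and Ccr4. The T-box word AGGTGTGA was found in 1.28% of promoters and in 0 of the 9. These letters also occur by composition alone, and a match is a description of the sequence.

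Ccr2 is the receptor for Ccl2, by which monocytes leave the bone marrow and Treg enter inflamed tissue. Its level was 175, 140, 123 and 232 CPM in BM-Treg replicates 1 to 4 and 138, 129, 88.4 and 80.8 CPM in SP-Treg replicates 1 to 4. The tissues overlapped, and BM-Treg replicate 4 was the highest library. Its log2 fold change was 0.62 (SE 0.23, 95% interval 0.10 to 1.15), which was not called by edgeR (adjusted p = 0.144) but was by DESeq2 (adjusted p = 0.0256), where 12.7% of tested genes were called. Without BM-Treg replicate 4 it was 0.42, and with batch as a term 1.09. The counts of Ccr2 were not whole numbers in 8 of 8 libraries, as happens where reads are shared between genes of similar sequence. Ccr3 had such counts in 1 library and Ccr4, Ccr8 and Cxcr3 in 2 each. How many reads were shared was not measured, so the uncertainty that this adds to the level of Ccr2 is not known.

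Ccr4, the receptor for Ccl17 and Ccl22, is found on most skin-homing and activated Treg. Its level was 428, 372, 381 and 435 CPM in BM-Treg replicates 1 to 4 and 327, 356, 397 and 346 CPM in SP-Treg replicates 1 to 4. The tissues overlapped through SP-Treg replicate 3. Between the tissues the log2 fold change was 0.18 (95% interval -0.04 to 0.40, adjusted p = 0.306 by edgeR). Ccr6 responds to Ccl20 and marks Treg of mucosal sites. Its level was 46.3, 38.2, 42.2 and 49.9 CPM in BM-Treg replicates 1 to 4 and 39.6, 39.3, 33.1 and 34.3 CPM in SP-Treg replicates 1 to 4. The ranges met at BM-Treg replicate 2, and the log2 fold change was 0.27 (95% interval 0.01 to 0.53, adjusted p = 0.192 by edgeR). For both genes the interval leaves out a difference of 2-fold.

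**Figure D2:**
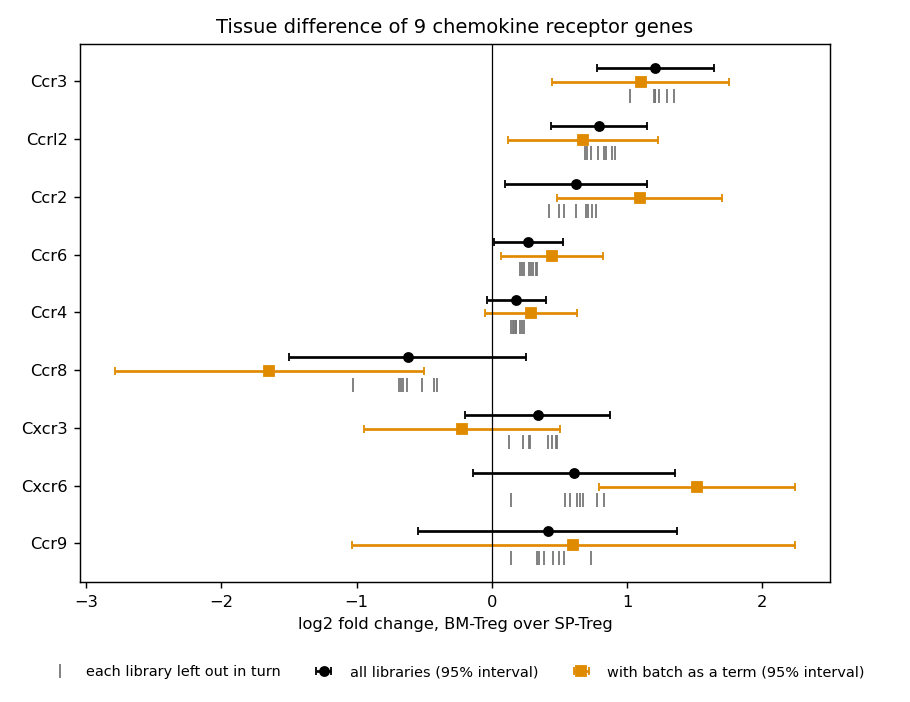
Log2 fold change of BM-Treg over SP-Treg (horizontal axis) for each receptor gene, with all libraries (black, 95% interval), with batch as a term (orange, 95% interval) and with each library left out in turn (grey ticks). The intervals of Ccr3, Ccrl2, Ccr2 and Ccr6 lie above 0 in both models, and the value of Cxcr3 moves from 0.34 to -0.22 with the batch term. With that term the interval of Cxcr6 lies above 0 (0.79 to 2.25) and that of Ccr8 below 0 (-2.79 to -0.50). Intervals are those of single genes, without adjustment. Ccr3 and Ccrl2 were called with all libraries, and Cxcr6 with the batch term.

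Ccr8, the Ccl1 receptor that marks Treg of skin and tumours, was the receptor gene with a negative log2 fold change. Its level was 29.9, 53.5, 81.9 and 23.3 CPM in BM-Treg replicates 1 to 4 and 85.3, 65.2, 68.5 and 72.9 CPM in SP-Treg replicates 1 to 4. BM-Treg replicate 3 lay within the SP-Treg range, and the other BM-Treg libraries lay below it. The log2 fold change was -0.62 (SE 0.37, 95% interval -1.50 to 0.25, adjusted p = 0.376 by edgeR). Without BM-Treg replicate 3 it was -1.03 with an adjusted p of 0.0495, and with batch as a term -1.65 with an adjusted p of 0.136. In batch 3 alone, where the BM-Treg library was assumed to vary like the SP-Treg libraries, it was -1.63 with an adjusted p of 0.0144 (edgeR), and 0.535% of tested genes were called.

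Cxcr3 binds Cxcl9 and Cxcl10 and is carried by Treg of type 1 inflammation. Its level was 77.7, 114, 142 and 68.2 CPM in BM-Treg replicates 1 to 4 and 89.1, 97.4, 61.8 and 70.1 CPM in SP-Treg replicates 1 to 4. The tissues overlapped widely. The log2 fold change was 0.34 (SE 0.24, adjusted p = 0.447 by edgeR) and turned to -0.22 with batch as a term, so no direction is given for this gene.

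Cxcr6, the receptor for Cxcl16 on tissue-resident lymphocytes, was low. Its level was 7.88, 5.05, 4.07 and 14.7 CPM in BM-Treg replicates 1 to 4 and 4.67, 5.81, 4.43 and 5.58 CPM in SP-Treg replicates 1 to 4. BM-Treg replicate 4 was above all other libraries and BM-Treg replicate 3 below them. The log2 fold change was 0.61 (SE 0.35, adjusted p = 0.319 by edgeR), 0.14 without BM-Treg replicate 4, and 1.52 with an adjusted p of 0.0403 with batch as a term. The last value rests on BM-Treg replicate 4, the BM-Treg library of batch 3.

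Ccr9 binds Ccl25 and guides lymphocytes to the small intestine and the thymus. Its level was 38.6, 28.9, 32.1 and 39.6 CPM in BM-Treg replicates 1 to 4 and 8.76, 21.7, 41.7 and 32.4 CPM in SP-Treg replicates 1 to 4. The SP-Treg libraries spanned 4.76-fold and enclosed the BM-Treg range, which spanned 1.37-fold. A log2 fold change of 0.41 (SE 0.41, 95% interval -0.54 to 1.37, adjusted p = 0.607 by edgeR) was estimated, so that a 2-fold difference could not be told from none. It was 0.14 without SP-Treg replicate 1 and 0.73 without SP-Treg replicate 3.

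The spread between libraries differed among the receptors. In BM-Treg, the highest library was 3.51-fold above the lowest for Ccr8 and 3.61-fold for Cxcr6, and the SD of their log2 levels was above that of 99.3% and 99.0% of tested genes. In SP-Treg the same ratios were 1.31 for both genes. Ccr3 and Ccr9 were the reverse, with 1.14 and 1.37 in BM-Treg and 2.08 and 4.76 in SP-Treg. The BM-Treg libraries come from both batches and those of SP-Treg from batch 3. Single libraries carried much of these ratios. In BM-Treg, that of Cxcr6 was 1.94 without replicate 4 and that of Ccr8 was 2.30 without replicate 3, and in SP-Treg that of Ccr9 was 1.93 without replicate 1 and that of Ccr3 was 1.25 without replicate 4. From high to low, the BM-Treg replicates stood in the order 3, 2, 1, 4 for Ccr8 and Cxcr3 and in the opposite order for Ccr2 and Cxcr6. These orders were noticed after the values were seen and are shared by 5.80% and 6.29% of tested genes.

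Levels of different genes were compared per transcript length, as FPKM, in which counts are divided by transcript length and library size. Ccr4 was the highest receptor gene in both tissues, at 152.5 ± 9.12 FPKM in BM-Treg and 128.1 ± 5.78 FPKM in SP-Treg (SD over 4 libraries). In BM-Treg it was followed by Cxcr3 (62.5 FPKM), Ccr2 (54.7 FPKM), Ccr8 (45.1 FPKM), Ccr6 (32.5 FPKM), Ccrl2 (15.0 FPKM), Ccr9 (10.9 FPKM), Ccr3 (5.77 FPKM) and Cxcr6 (4.39 FPKM). The libraries of 4 of these 8 neighbouring pairs overlapped, namely those of Cxcr3 with Ccr2, Ccr2 with Ccr8, Ccr8 with Ccr6, and Ccr3 with Cxcr6. In SP-Treg, Ccr8 came second (66.6 FPKM), before Cxcr3 (47.3 FPKM), Ccr2 (34.1 FPKM), Ccr6 (26.0 FPKM), Ccrl2 (8.22 FPKM), Ccr9 (7.45 FPKM), Cxcr6 (2.76 FPKM) and Ccr3 (2.40 FPKM). Of the 8 pairs, 6 overlapped, and Ccr4 stood apart from Ccr8 and Ccr6 from Ccrl2. Among tested genes, the mean FPKM of Ccr4 was at percentile 97.0 in BM-Treg and 96.6 in SP-Treg, and that of Ccr3 at 40.5 and 23.3.

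**Figure D3:**
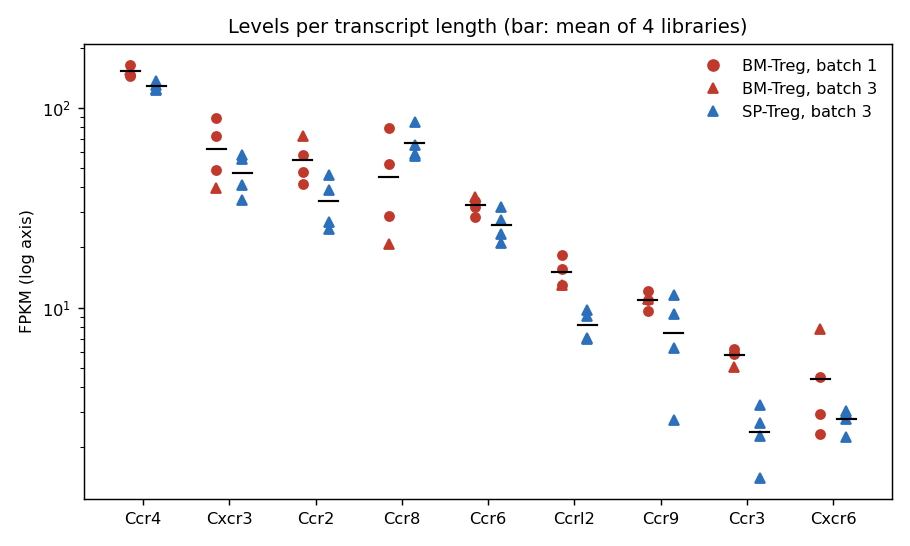
FPKM (vertical log axis) of the 9 receptor genes in each library, ordered by their BM-Treg mean, with circles for batch 1, triangles for batch 3 and bars for the mean of 4 libraries. Ccr4 lies above the other receptor genes in both tissues, and the lowest means are those of Ccr3 and Cxcr6.

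Of the 9 genes, 6 had 1 annotated transcript and 3 had several. Shares of overlapping transcripts are estimates. Ccr2-202 took 61.8 ± 5.92% of the expected counts of Ccr2 in BM-Treg and 62.6 ± 7.58% in SP-Treg (SD over 4 libraries). For Ccr6, 3 transcripts had a mean share of at least 5%, with Ccr6-202 at 36.2 ± 8.41% in BM-Treg and 28.5 ± 6.86% in SP-Treg, and Ccr6-204 at 32.7 ± 6.25% and 36.9 ± 11.7%. Ccr6-206, below that limit, took 1.35 to 3.46% in the BM-Treg libraries and 0 in those of SP-Treg. The leading transcript of Ccr9, Ccr9-205, took 54.1 ± 10.6% in BM-Treg and 66.4 ± 7.61% in SP-Treg. Every transcript with a mean share of at least 5% in a tissue overlapped between the tissues.

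**Figure D4:**
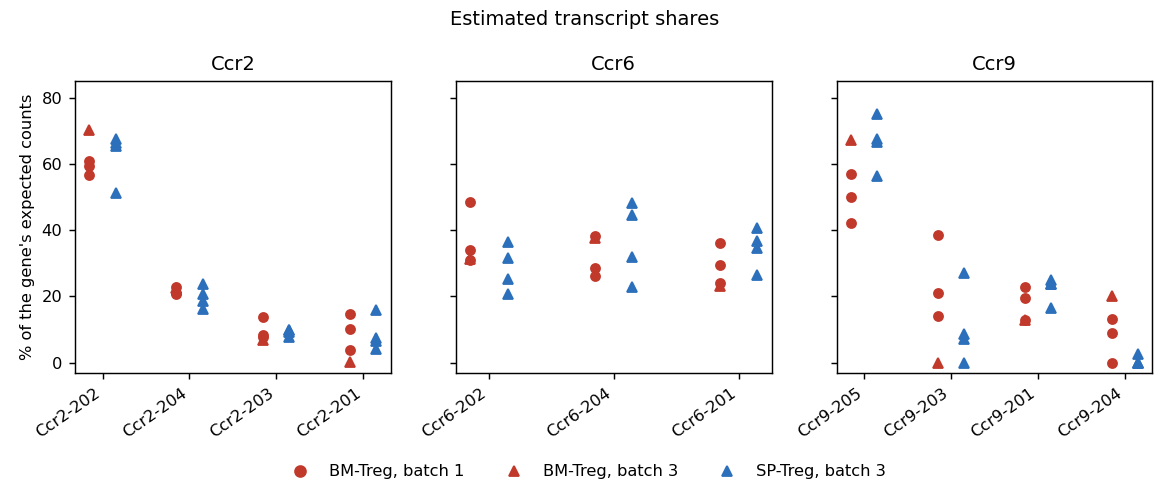
Share of the gene's expected counts (vertical axis, %) taken by each transcript with a mean share of at least 5% in a tissue, for Ccr2, Ccr6 and Ccr9 in each library (circles batch 1, triangles batch 3). The libraries of the tissues overlap for every transcript shown.

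On chromosome 9 lie 7 of the 9 genes, with Ccr6 on chromosome 17 and Cxcr3 on the X chromosome. Ccr9, Cxcr6, Ccr3 and Ccr2 lie near each other on this chromosome, as do Xcr1, Ccr1 and Ccr1l1. Xcr1 and Ccr1 averaged at most 0.42 CPM in either tissue and Ccr1l1 was at 0, and none of these 3 was tested. The span of Ccr9 overlaps Lztfl1 and that of Cxcr6 lies within Fyco1, each on the opposite strand. Both neighbours were higher in BM-Treg, Lztfl1 by a log2 fold change of 0.91 (adjusted p = 0.00281) and Fyco1 by 0.42 (adjusted p = 0.0232, edgeR). They share 0 exonic bases with the receptor genes in GENCODE M21. Of the Ccr9 transcripts, only Ccr9-202 spans Lztfl1, and its share was 0 in every library. The part of both neighbours in the values of Ccr9 and Cxcr6 was not tested.

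The remaining chemokine receptors were read from a list of 17 genes, of which 7 passed the filter. No gene of the list was called higher and 2 were called lower in BM-Treg, against 3.72% and 5.02% of all tested genes. Both are receptors of lymphoid follicles and T cell zones. Cxcr5, which guides cells into B cell follicles, averaged 23.1 ± 3.61 CPM over BM-Treg libraries against 67.5 ± 14.1 CPM over those of SP-Treg (SD over 4 libraries, log2 fold change -1.54, adjusted p = 0.000176 by edgeR). Ccr7, which guides cells into T cell zones, averaged 17.9 ± 2.06 against 43.9 ± 18.8 CPM (log2 fold change -1.30, adjusted p = 0.0163 by edgeR). With batch as a term Cxcr5 was still called (-1.74, adjusted p = 0.0155) and Ccr7 was not (-1.10, adjusted p = 0.277). B cells carry Cxcr5 and Ccr7 too, and SP-Treg replicate 2 was the library with the highest B cell markers. Their part in these differences was not tested.

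Over all tested genes, 3.72% were called higher and 5.02% lower in BM-Treg, with a median log2 fold change of -0.01. Of 18 ligands of the 9 receptors, 4 passed the filter and none was called (median log2 fold change -0.11). Of 28 genes of chemokine signalling, 27 were tested, 5 were higher and 1 was lower in BM-Treg, with a median of 0.08. Those with the largest change were Tiam1, an activator of Rac (-0.83, adjusted p = 0.000899), Gng2, a G protein gamma subunit (0.65, adjusted p = 0.00282), Plcb3, a phospholipase C (0.49, adjusted p = 0.0449), and Arrb1, a beta-arrestin (0.48, adjusted p = 0.0479). With batch as a term Tiam1 and Gng2 were still called (adjusted p = 0.0155 and 0.0376 by edgeR), and Plcb3 and Arrb1 were not (0.191 and 0.266). Of 14 transcription factors of receptor programmes, all were tested, 1 was higher and 4 were lower, with a median of -0.22. Among the lower ones were Irf4 (-1.14, adjusted p = 0.000392), Satb1 (-1.06, adjusted p = 0.00116) and Batf (-0.56, adjusted p = 0.0483), by edgeR. The higher one, named after its value was seen, was Gata3 (0.43, adjusted p = 0.00906). With batch as a term Irf4 was still called (adjusted p = 0.0274 by edgeR), and Satb1, Batf and Gata3 were not (0.0598, 0.303 and 0.110).

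**Figure D5:**
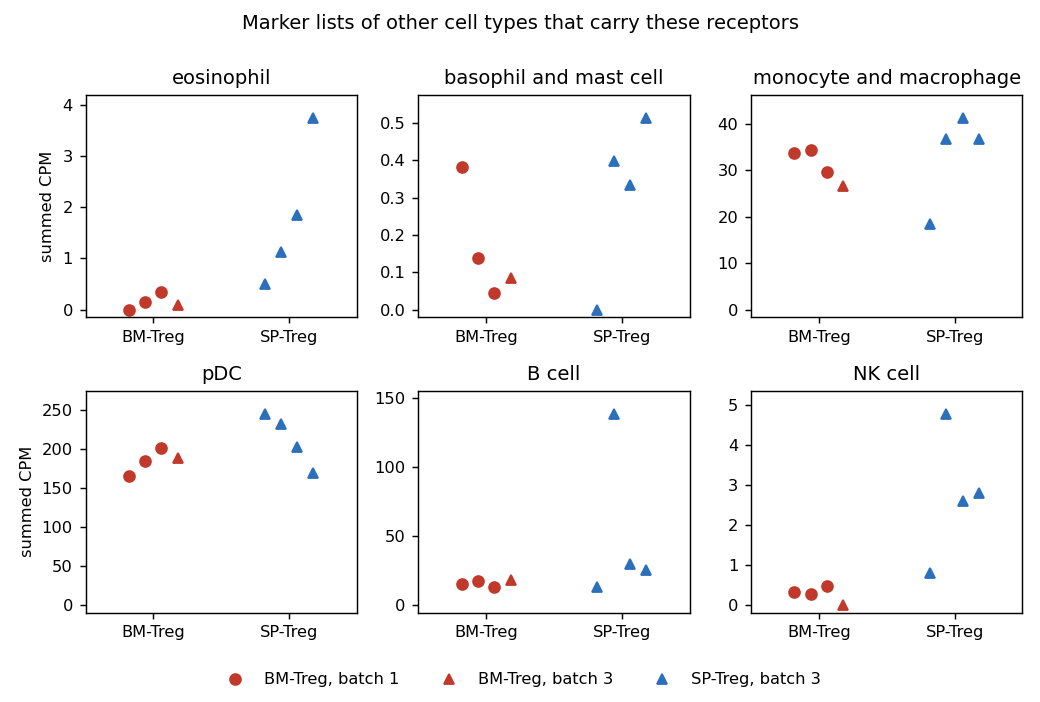
Summed CPM (vertical axis) of marker lists of 6 other cell types that carry some of these receptors, in each library (circles batch 1, triangles batch 3). Eosinophil and NK cell sums are higher in SP-Treg, at most 3.74 and 4.78 CPM, and the B cell sum of SP-Treg replicate 2 is 138.4 CPM.

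Among the other cell types whose receptors these are, the 5 NK cell markers summed to 0 to 0.482 CPM in BM-Treg and 0.790 to 4.78 CPM in SP-Treg, and CD8 T cell markers to 10.9 to 12.6 and 13.2 to 41.0 CPM. For both lists the highest sum was that of SP-Treg replicate 2, and the other SP-Treg libraries reached at most 2.79 and 22.7 CPM. Both cell types can carry Cxcr3 and Cxcr6. The 2 gamma delta T cell markers with a value summed to 0.334 to 1.37 CPM in BM-Treg and 0.575 to 4.40 CPM in SP-Treg. The 8 plasmacytoid dendritic cell markers, which can accompany Ccr9, summed to 165.1 to 201.5 CPM in BM-Treg and 169.6 to 244.9 CPM in SP-Treg and overlapped. Runx2 made up most of this sum, at 111 to 196 CPM, whereas Siglech, Klk1 and Cox6a2 were under 1 CPM in every library. Siglech was at 0.167 to 0.821 CPM in BM-Treg and at 0 to 0.334 CPM in SP-Treg. Their part in the values of these receptors was not tested.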

How the data were processed

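RNA of sorted Treg was sequenced in 8 libraries. The authors deposited expected counts per gene and transcript, not normalized between libraries, and FPKM values. The submitters' processing notes list cutadapt 1.9, STAR 2.5.2a, RSEM 1.2.30 and GRCm38, without roles. All columns of single libraries were matched by name. Expected counts were rounded, filtered with filterByExpr, normalized by TMM and tested with edgeR 4.0.16 (quasi-likelihood, robust, no covariate) in R 4.3.3, with Benjamini-Hochberg adjustment over all tested genes. limma 3.58.1 and DESeq2 1.42.0 served as alternatives, beside other filters, a batch term, batch 3 alone, a replicate block and each library left out. CPM use the TMM factors of the tested genes. CPM were first computed with factors over all genes and this was changed after those values had been seen, to match the fit and an earlier account of these data. The scripts were tested on data simulated without a batch effect, in which 67.7% of 2-fold and 93% of 4-fold changes were called. That simulation says nothing of the batch in the real libraries. The study's methods name 4 biological replicates per condition, whereas the legend of its heatmap gives 3 per tissue. The p-values measure the spread between the 4 libraries of each tissue, which in BM-Treg come from batches 1 and 3. The cDNA was amplified without molecular identifiers, so floors cover counting error only. The receptor genes and all lists were chosen with earlier results of these data known. Of 153 list entries, 152 matched. All receptor genes are named, and of each other list at most 4 genes that passed the test, those with the largest change. A few genes that this rule or the lists give are not reported here.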

Additional observations from a re-analysis of the deposited data

Results flagged for a closer look

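The 6 B cell markers summed to 138.4 CPM in SP-Treg replicate 2, far from the 13.003 to 29.6 CPM of the other SP-Treg libraries by Dixon's criterion, which chance meets in about 1 in 20 groups. Of 40 groups examined, this was the 1 that met it.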

How the results depend on the processing

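Of 162 values of the receptor genes under alternatives, 152 kept their direction and their side of the threshold, 4 lost a call, 4 gained one and 2 reversed. Ccr3 and Ccrl2 were called in 16 of 18 alternatives each, with the batch term and batch 3 alone as the exceptions. The reversed values were those of Cxcr3, -0.22 with the batch term and -0.20 in batch 3 alone. The number of genes called, 1172, became 765 and 728 with limma-trend on log2(FPKM + 1) and log2(FPKM + 0.1), 258 with the batch term, 79 in batch 3 alone and 690 to 1048 with a library left out. Receptor genes called were 1 with the batch term, 1 in batch 3 alone, and 2 to 3 with a library left out. Called genes of the other 4 lists, 13, became 8 and 8 with limma-trend, 6 with the batch term, 3 in batch 3 alone and 7 to 11 with a library left out. The share of calls that were higher in BM-Treg was 42.6% in the main test. That share was 63.0% and 62.4% with limma-trend, and 51.3% with at least 10 counts in every library. Batch 3 alone had been planned as a value with no test, and its test, which assumes that the lone BM-Treg library varies like the SP-Treg libraries, was added after the data had been seen. Replicate numbers did not pair the samples (correlations of -0.18 to 0.06). With the replicate block 948 genes and 2 receptor genes were called, and no call of a receptor gene changed. Overlapping neighbours in BM-Treg levels were 2 to 4 with a library left out. As shares of FPKM, Ccr6-204 took 39.5% in BM-Treg (32.7% of counts), ahead of Ccr6-202 (34.1%), which led by counts there, and Ccr9-205 took 42.6% in BM-Treg and 53.8% in SP-Treg. With CPM factors over all genes, as first computed, 2 receptor genes and 15.9% of tested genes had no overlap, and no CPM of a receptor gene differed by more than 2.71%. Without factors, 3 receptor genes and 15.1% of tested genes had no overlap. The causes were not tested.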
